A study of Mus musculus with 10 samples.

Results

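The genes described here are 32 genes of cholesterol and fatty acid synthesis and of its control in mouse cells, chosen by name from the 35275 gene entries of the count table, and all 32 had enough reads to be tested. They comprise 7 enzymes of the mevalonate steps (Acat2, Hmgcs1, Mvk, Pmvk, Mvd, Idi1 and Fdps), 11 enzymes from squalene to cholesterol (Fdft1, Sqle, Lss, Cyp51, Tm7sf2, Msmo1, Nsdhl, Hsd17b7, Ebp, Sc5d and Dhcr7), 6 genes of sterol sensing and transport control (Insig1, Insig2, Srebf1, Srebf2, Scap and Stard4), 6 genes of fatty acid synthesis (Acly, Acaca, Fasn, Scd1, Scd2 and Elovl6) and 2 sterol efflux pumps (Abca1 and Abcg1). The cells were 2/20 CTLs, a single mouse line of cytotoxic T lymphocytes of WT genotype that recognises the AH1 peptide. All groups came from a culture kept by weekly stimulation with AH1 peptide, IL-2 and irradiated spleen cells of BALB/c mice. RNA was sequenced from CTLs labelled as resting (treatment None), from CTLs activated with AH1 peptide at 1 µg/mL for 4 h or for 24 h, and from CTLs cultured together with 4T1 cells, a BALB/c mammary carcinoma line, for 4 h or for 24 h. Each of the 5 groups held 2 libraries, and before RNA extraction CTLs were pulled out on CD45 antibody beads. The labels do not say whether replicate libraries came from separate cultures, so p-values measure the spread between these libraries, which may be technical. They also do not say whether spleen cells were present during activation with peptide, and no library of 4T1 cells alone was analysed here.

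Cells make cholesterol and fatty acids from acetyl-CoA, and both routes are controlled by the membrane-bound factors SREBP2 (Srebf2) and SREBP1 (Srebf1). When sterols are scarce, SCAP (Scap) escorts the SREBPs from the endoplasmic reticulum to the Golgi, where they are cut and freed to enter the nucleus. When sterols are plentiful, INSIG proteins (Insig1, Insig2) hold SCAP back, and oxysterols activate the liver X receptors, which raise the efflux pumps Abca1 and Abcg1. T cells that are activated and begin to divide are known to raise sterol and fatty acid synthesis for new membrane and to lower sterol efflux.

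Promoter windows, 250 bases before to 50 bases after a gene's start, were available from RefSeq (GRCm38.p6) for 25 of the 32 genes. The letters CCAAT, the box bound by the factor NF-Y that often stands beside SREBP sites, were found on either strand in 20 of the 25 genes, which is 80% beside 41.1% of the 27025 genes in the table. Some genes had several windows, and a gene counted if any of them matched. By window, CCAAT stood in 21 of 33 beside 37.4% of all 32851 windows. The genes in the table were not limited to those tested here. The sterol regulatory element letters TCACNCCAC stood in 1 of 25, the Hmgcs1 promoter, beside 1.44% of all genes. The E-box letters CACGTG stood in 6 of 25, which is 24% beside 8.09% of all genes. These are exact matches of letters, so near matches were not counted, and no factor binding was measured. The sequences of 4 promoters are shown 5′ to 3′ on the gene's strand. They contrast the promoter with the sterol regulatory element letters, a kinase promoter with 5 CCAAT boxes, and the promoter of the sterol sensor Insig1. The last is a promoter with none of these letters whose gene swung widely. Capitals mark the sterol regulatory element and every CCAAT box, read on either strand.
Hmgcs1 promoter (GRCm38.p6, chr13:119690101-119690400, plus strand): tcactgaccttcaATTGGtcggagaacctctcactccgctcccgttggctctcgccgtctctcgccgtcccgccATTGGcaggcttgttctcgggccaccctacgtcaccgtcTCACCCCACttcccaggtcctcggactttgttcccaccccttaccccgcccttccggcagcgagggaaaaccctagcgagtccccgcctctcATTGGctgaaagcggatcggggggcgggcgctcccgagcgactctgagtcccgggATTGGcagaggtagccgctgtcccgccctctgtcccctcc
Mvk promoter (GRCm38.p6, chr5:114444019-114444318, plus strand): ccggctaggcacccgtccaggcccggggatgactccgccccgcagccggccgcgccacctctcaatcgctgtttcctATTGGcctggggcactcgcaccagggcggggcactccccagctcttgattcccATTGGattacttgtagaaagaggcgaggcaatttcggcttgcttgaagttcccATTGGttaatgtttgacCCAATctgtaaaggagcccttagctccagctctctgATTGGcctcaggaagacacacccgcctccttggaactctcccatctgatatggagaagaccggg
Insig1 promoter (GRCm38.p6, chr5:28071162-28071461, plus strand): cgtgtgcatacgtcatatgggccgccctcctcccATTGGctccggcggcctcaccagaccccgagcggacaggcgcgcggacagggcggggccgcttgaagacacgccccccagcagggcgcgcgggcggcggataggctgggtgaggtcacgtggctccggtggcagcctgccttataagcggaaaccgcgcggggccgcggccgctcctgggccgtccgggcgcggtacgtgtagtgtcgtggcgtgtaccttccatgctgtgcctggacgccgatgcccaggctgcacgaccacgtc
Elovl6 promoter (GRCm38.p6, chr3:129532136-129532435, plus strand): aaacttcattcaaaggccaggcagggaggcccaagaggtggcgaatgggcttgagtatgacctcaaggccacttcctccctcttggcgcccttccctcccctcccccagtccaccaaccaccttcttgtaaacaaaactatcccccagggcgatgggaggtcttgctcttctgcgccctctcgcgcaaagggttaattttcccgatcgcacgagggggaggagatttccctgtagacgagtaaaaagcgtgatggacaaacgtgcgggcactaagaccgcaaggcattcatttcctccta
In Hmgcs1 the sterol regulatory element letters lay 137 to 129 bases before the start, between CCAAT boxes whose first bases lay 176 and 45 bases before it. In Mvk the 5 boxes began 173, 120, 67, 50 and 14 bases before the start, in Insig1 the single box began 216 bases before it, and Elovl6 had none.

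The libraries held 14104658 to 22910633 counts. At 4 h of peptide, Ifng alone took 9.14% and 7.48% of all counts, and the composition factors of edgeR (trimmed mean of M values, TMM) were 0.711 and 0.758 there against 1.03 to 1.11 elsewhere. Levels below are CPM (counts scaled to a common library size) after that scaling, and CPM per kilobase of gene length wherever genes are set against each other. The summed CPM of 17 T cell identity genes was 8842 to 9214 at rest, 14820 to 15290 at 4 h of peptide, 4333 to 4680 at 24 h of peptide, 3121 to 3263 at 4 h of co-culture and 1304 to 1375 at 24 h of co-culture. Of this list Cd6 had no count in either resting library, and Cd2 and Cd5 lay at 1.61 and 0.137 CPM on average there. The summed CPM of 15 epithelial genes was 11.6 to 21.3 in the resting and peptide libraries and 4195 to 4733 in co-culture, with Krt8 at 1356 and 1256 CPM at 4 h. The summed CPM of 10 B cell genes was 3.09 to 3.47 at rest, 461 to 541 and 204 to 433 after 4 h and 24 h of peptide, and 0.695 to 1.27 in co-culture. Cd79b had no count at rest. The summed CPM of 9 myeloid genes was 42.1 to 46.8 at rest, 136 to 185 and 39.8 to 60.5 after 4 h and 24 h of peptide, and 21.3 to 41.0 in co-culture. In bulk RNA, fewer cells of a type and less RNA per cell cannot be told apart, so each comparison was also scaled so that the T cell identity genes were level between libraries. That scaling moves every gene of a library alike, and its calls for the 32 genes stand beside the main ones. It levels the median log ratio of the list and not each gene, since 11 of the 17 genes rose and 4 fell at 4 h of peptide against rest, 1 rose and 10 fell at 24 h of peptide, 1 rose and 12 fell at 4 h of co-culture, and 15 fell at 24 h of co-culture under TMM scaling.

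**Figure D1:**
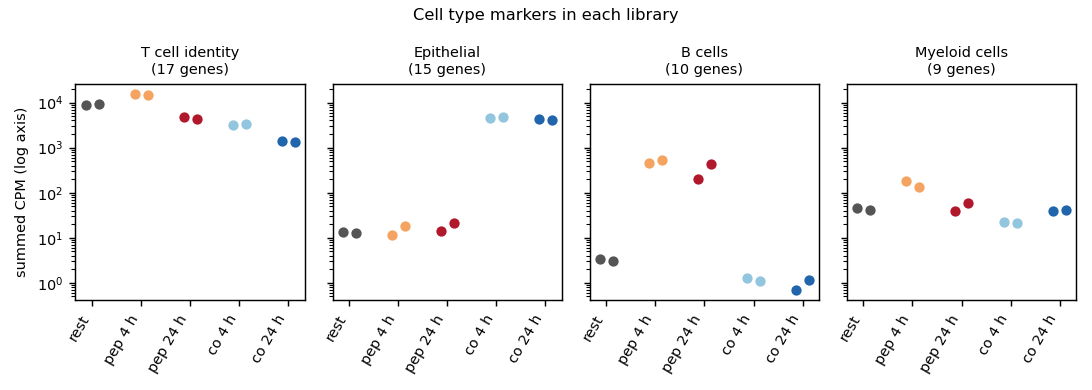
Summed CPM (log axis) of 17 T cell identity, 15 epithelial, 10 B cell and 9 myeloid genes in the 2 libraries of each group, where pep is AH1 peptide and co is co-culture with 4T1 cells. Epithelial genes summed to over 4195 CPM in the co-culture libraries and at most 21.3 elsewhere, and B cell genes were high only in the 4 peptide libraries.

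The genes changed order from rest to activation. Per kilobase, Insig1 led at rest with 130.5 CPM, ahead of Srebf2 with 41.8 and Acly with 29.7, and Scd1 was lowest with 0.0348. At 4 h of peptide Insig1 still led with 72.6, followed by Fasn with 41.5. Fdps led at 24 h of peptide with 83.7 and at 24 h of co-culture with 66.5, and Scd2 led at 4 h of co-culture with 67.2. Of the 32 genes, 13 had their lowest mean at rest, 11 at 4 h of peptide, 2 at 24 h of peptide, 4 at 4 h of co-culture and 2 at 24 h of co-culture. The highest mean was at rest for 4 genes (Insig1, Srebf2, Abca1 and Abcg1), at 4 h of peptide for 5, at 24 h of peptide for 11, at 4 h of co-culture for 2 and at 24 h of co-culture for 10.

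**Figure D2:**
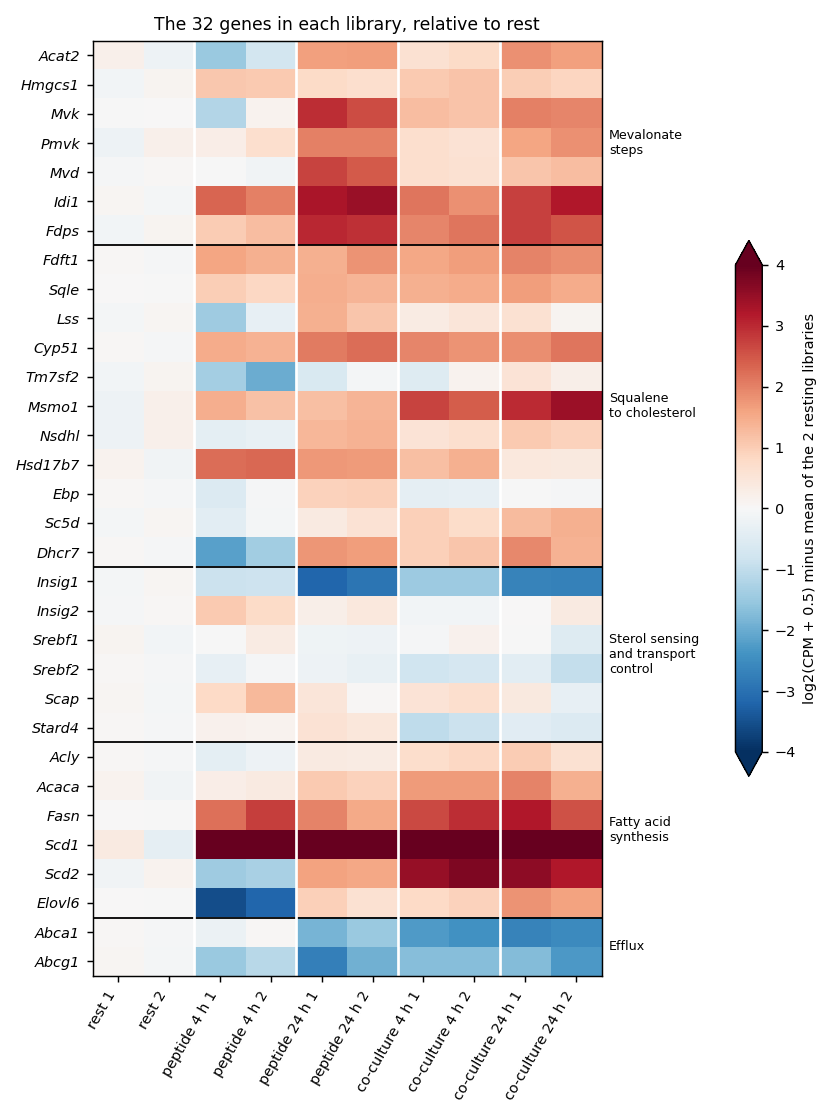
Each of the 32 genes (lines, grouped by role) in each of the 10 libraries (columns), as log2(CPM + 0.5) minus the mean of the 2 resting libraries, with colours ending at 4 in either direction. Most mevalonate and squalene-to-cholesterol genes are high at 24 h of peptide and in co-culture, Insig1 and the efflux pumps are low there, and Elovl6 and Dhcr7 are low at 4 h of peptide.

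Summed per kilobase, the 7 mevalonate genes stood at 35.9 ± 2.71 CPM at rest (SD, n = 2), 66.1 ± 4.18 and 182 ± 7.17 at 4 h and 24 h of peptide, and 96.3 ± 3.78 and 144 ± 3.64 at 4 h and 24 h of co-culture. The 11 genes from squalene to cholesterol followed the same order except that 24 h of co-culture was highest, at 186 ± 9.60 beside 158 ± 6.84 at 24 h of peptide. The 6 sensing and transport genes summed to 235 ± 4.61 at rest and 105 ± 13.4 at 24 h of co-culture, a sum in which Insig1 weighs most. The 6 fatty acid genes summed to 47.9 ± 1.45 at rest, 75.6 ± 13.5 and 91.8 ± 6.98 with peptide, and 185 ± 19.9 and 187 ± 42.2 in co-culture, where the libraries at 4 h and at 24 h overlapped. The 2 efflux pumps summed to 5.84 ± 0.409 at rest and to 1.19 to 2.95 in the other groups. No test was made of these sums.

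**Figure D3:**
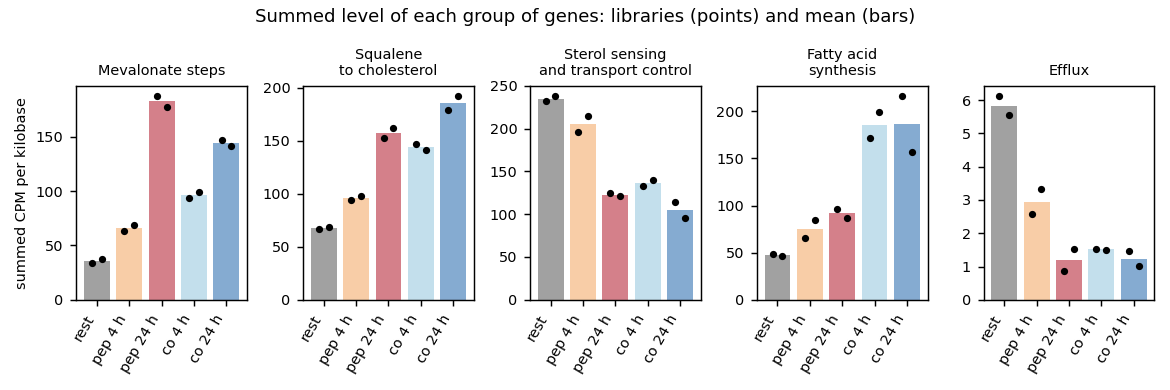
Summed CPM per kilobase of the genes of each role in each library (points) with the mean of 2 libraries (bars, each panel with its own axis from 0), where pep is AH1 peptide and co is co-culture. The mevalonate sum is highest at 24 h of peptide with 182, and the fatty acid sum is highest in co-culture with 185 and 187.

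The first comparison set the libraries of 4 h of peptide against rest. B cell genes summed to 461 to 541 CPM at 4 h and 204 to 433 CPM at 24 h of peptide, against 3.09 to 3.47 CPM at rest. From which cells a change with peptide came was therefore not tested. The genes Idi1, Fdps, Hsd17b7, Cyp51, Fasn and Scd1 were among 12 that rose, and Elovl6, Dhcr7, Tm7sf2, Scd2, Acat2 and Insig1 were among 8 that fell (edgeR quasi-likelihood test, two-sided, Benjamini-Hochberg adjusted over 14729 genes, threshold 0.05). The risen genes made up 37.5% of the 32 beside 28.8% of all genes tested, and the fallen 25% beside 30.7%, so both shares lay near those of all genes. The median log2 fold change of the 32 genes was 0.03 beside −0.04 for all genes. With T cell identity genes held level, 6 rose beside 12.9% of all genes and 19 fell beside 50.0%, and the medians were −0.83 and −0.91.

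Of the mevalonate genes 3 rose and 1 fell at 4 h of peptide. Idi1, the isomerase of the isoprenoid unit, stood at 5.15 and 4.53 CPM at rest and at 26.2 and 21.0 CPM after peptide, a log2 fold change of 2.28 ± 0.24 (SE, adjusted p = 2.4e-06). The groups did not overlap. Fdps, which makes farnesyl diphosphate, rose by 1.16 ± 0.17 on the log2 scale (adjusted p = 5.1e-05) and Hmgcs1, the HMG-CoA synthase, by 1.07 ± 0.15 (adjusted p = 3e-05), but with T cell identity genes held level the changes of Fdps and Hmgcs1 were 0.29 and 0.20 and did not pass. Acat2, the thiolase that joins acetyl-CoA, went the other way, from 10.1 and 7.55 CPM to 2.80 and 5.11 CPM, a fall of 2.24 times (adjusted p = 0.0027). Mvk, Pmvk and Mvd, the mevalonate kinases and decarboxylase, had log2 fold changes of −0.43, 0.52 and −0.09 and did not pass the test.

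From squalene to cholesterol 5 genes rose and 3 fell. Hsd17b7, a sterol ketoreductase, had the steepest rise of these, from 14.4 and 12.0 CPM to 63.6 and 66.0 CPM (log2 fold change 2.29 ± 0.17, adjusted p = 1e-07), its highest level in any group under TMM scaling. With T cell identity genes held level, Hsd17b7 was 1.43 above rest here on the log2 scale and 2.63 to 3.07 in the other groups. Fdft1, the squalene synthase, Cyp51, the lanosterol demethylase, Msmo1, the methyl sterol oxidase, and Sqle, the squalene epoxidase, rose by 1.56, 1.46, 1.34 and 0.91 on the log2 scale, and with T cell identity genes held level Msmo1 and Sqle no longer passed. Dhcr7, the reductase of the last step, stood at 8.35 and 7.76 CPM at rest and at 1.40 and 2.78 CPM after peptide, 3.85 times lower (adjusted p = 0.00013). Tm7sf2, a sterol reductase, was 3.87 times lower (adjusted p = 0.00169). Lss, the lanosterol synthase, was 1.75 times lower (adjusted p = 0.0379), but without peptide 4 h replicate 1 its log2 change was −0.35 with an adjusted p of 0.283, and without either resting library or either library of co-culture at 4 h it also missed the threshold, with adjusted p from 0.0561 to 0.139. Nsdhl, Ebp and Sc5d did not pass, with log2 fold changes of −0.37, −0.29 and −0.25.

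Among the sensing genes, Insig1 stood at 333 and 371 CPM at rest and at 193 and 198 CPM after 4 h of peptide, 1.80 times lower (log2 fold change −0.85 ± 0.13, adjusted p = 8.4e-05). The other INSIG gene went the opposite way. Insig2 rose from 41.5 and 44.7 CPM to 88.8 and 73.3 CPM (0.91 ± 0.16, adjusted p = 0.00032), and Scap rose by 1.07 ± 0.23 (adjusted p = 0.0015), while with T cell identity genes held level both changes were small, at 0.03 and 0.22. Srebf1, Srebf2 and Stard4, the last encoding a sterol transfer protein, had log2 fold changes of 0.16, −0.18 and 0.15 and did not pass the test.

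Of the fatty acid genes, Fasn, the fatty acid synthase, rose from 70.1 and 68.8 CPM to 323 and 471 CPM, 5.72 times higher (adjusted p = 1.4e-06). Scd1, a stearoyl-CoA desaturase, had 6 and 0 counts in the resting libraries and stood at 21.3 and 22.6 CPM after peptide (adjusted p = 2.2e-07), its highest level in any group under TMM scaling. With T cell identity genes held level, Scd1 was 5.97 above rest here on the log2 scale and 7.06 to 8.66 in the other groups. Its paralog Scd2 fell, from 26.9 and 32.4 CPM to 10.6 and 11.8 CPM (2.64 times lower, adjusted p = 1.9e-05). The desaturases thus went opposite ways, though the sources do not state how reads shared by these related sequences were assigned. Elovl6, the elongase of palmitate, showed the deepest fall of the 32 genes, from 18.5 and 18.1 CPM to 1.11 and 1.61 CPM, 13.4 times lower (log2 fold change −3.75 ± 0.25, adjusted p = 4.8e-08). Acly, the citrate lyase, and Acaca, the acetyl-CoA carboxylase, had log2 fold changes of −0.29 and 0.30 and did not pass. Of the efflux pumps, Abcg1 fell from 17.8 and 15.9 CPM to 5.68 and 7.60 CPM (2.53 times lower, adjusted p = 0.00443), and Abca1 overlapped with rest at 10.3 and 12.6 CPM.

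After 24 h of peptide most synthesis enzymes stood above rest. Of the 32 genes 23 rose and 3 fell, the latter being Insig1, Abca1 and Abcg1. The risen genes made up 71.9% beside 29.2% of all genes tested, and the fallen 9.38% beside 26.1%. The median log2 fold change was 1.30 beside 0.02 for all genes. With T cell identity genes held level, 28 rose beside 51.1% of all genes and 2 fell beside 9.67%, and the medians were 2.18 and 0.90.

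All 7 mevalonate genes rose at 24 h of peptide, by 0.73 to 3.49 on the log2 scale. With T cell identity genes held level each also rose, but that scaling took the median of all genes from 0.02 to 0.90. A rise under TMM scaling could therefore only grow. Idi1 reached 50.6 and 58.3 CPM, 11.2 times its resting level (log2 fold change 3.49 ± 0.24, adjusted p = 7.5e-08). Fdps (mm10, chr3:89093592-89101967, minus strand) went from 11.9 and 14.0 CPM at rest to 107.5 and 100.2 CPM, 8.02 times higher (adjusted p = 1.7e-08). The smallest change in this group of genes was that of Hmgcs1, at 59.4 and 54.7 CPM against 31.8 and 37.3 CPM at rest. Its promoter with the sterol regulatory element letters is shown above. Mvk, whose promoter with 5 CCAAT boxes is also shown, had not changed detectably at 4 h and stood at 31.6 and 24.7 CPM at 24 h, 7.70 times its resting level (adjusted p = 1.2e-05). Mvd and Pmvk did likewise, at 6.57 and 4.29 times rest.

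From squalene to cholesterol 10 of 11 genes rose, by 0.48 to 2.18 on the log2 scale, and only Tm7sf2 did not pass, at −0.36 ± 0.39. Tm7sf2 lies beside Vps51 on the same strand with shared positions, and Vps51 held 464% of its counts, so its values are uncertain. Cyp51 rose most, from 22.6 and 21.4 CPM to 94.7 and 105 CPM (4.54 times, adjusted p = 9.8e-08). Dhcr7 was at 28.8 and 27.0 CPM, 3.46 times rest (adjusted p = 6.6e-05), after lying below rest at 4 h. The rise of Sc5d, the sterol desaturase, was small at 0.48 ± 0.17 and was lost without resting replicate 1 (adjusted p = 0.195), resting replicate 2 (0.0792) or peptide 24 h replicate 2 (0.189).

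**Figure D4:**
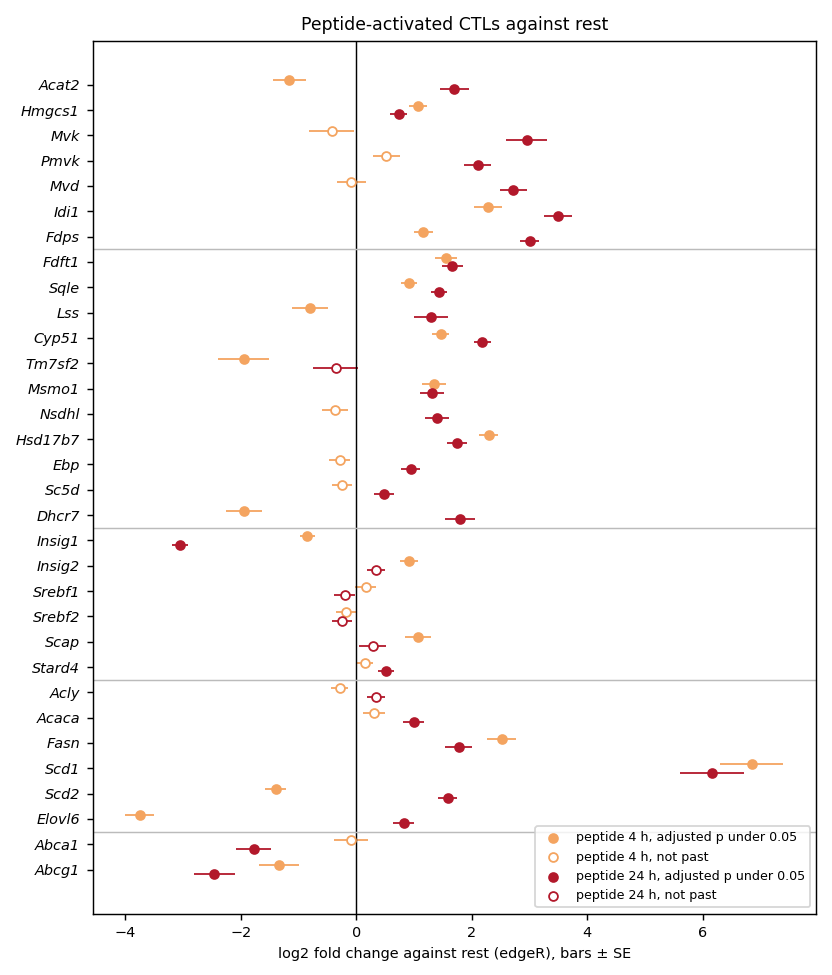
Log2 fold change against rest of each of the 32 genes after 4 h and 24 h of peptide (edgeR, bars ± SE, filled points past an adjusted p of 0.05, lines between the roles). Dhcr7, Lss, Acat2, Scd2 and Elovl6 lie below 0 at 4 h and above 0 at 24 h, and Insig1 and Abcg1 lie below 0 at both times.

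Insig1 (mm10, chr5:28071363-28078662, plus strand) had by 24 h of peptide fallen to 38.9 and 45.6 CPM from 333 and 371 CPM, 8.33 times lower (log2 fold change −3.06 ± 0.14, adjusted p = 3.5e-09), and it remained lower with T cell identity genes held level, at −2.17 (adjusted p = 1.6e-06). The libraries of rest, 4 h and 24 h formed separate steps. Insig2, Srebf1, Srebf2 and Scap did not pass, with log2 fold changes between −0.25 and 0.34, although Srebf1 and Srebf2 turned to 0.68 and 0.63 with T cell identity genes held level. Srebf1 shares positions with Rai1 on the opposite strand, and since the strand setting of the counting is not given, reads of such pairs cannot be told apart. The rise of Stard4 by 0.51 ± 0.14 (adjusted p = 0.00674) was lost without resting replicate 2 (adjusted p = 0.0663) or peptide 24 h replicate 1 (0.0714).

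Of the fatty acid genes 5 rose at 24 h of peptide and Acly, at 0.34 ± 0.15, did not pass. Fasn stood at 274 and 200.5 CPM, 3.42 times rest (adjusted p = 3.5e-05), and Scd1 at 9.80 and 17.4 CPM (adjusted p = 8.7e-07). Scd2 was now above rest at 90.9 and 86.8 CPM, a log2 fold change of 1.58 ± 0.17 (adjusted p = 3.7e-06). Elovl6 likewise had crossed from below to above rest, at 36.2 and 28.4 CPM (1.76 times, adjusted p = 0.00199). Both pumps fell: Abca1 was 3.44 times lower at 2.98 and 4.04 CPM (adjusted p = 0.00025) and Abcg1 5.49 times lower at 2.08 and 4.04 CPM (adjusted p = 7.2e-05), though with T cell identity genes held level Abca1 no longer passed, at −0.88 (adjusted p = 0.0678).

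The change between 4 h and 24 h of peptide was tested directly. Of the 32 genes 19 rose beside 28.2% of all genes and 7 fell beside 24.6%, with medians of 0.66 and 0.03. Elovl6 rose by 4.57 ± 0.25 on the log2 scale, Dhcr7 by 3.73 ± 0.31, Mvk by 3.37 ± 0.37, Scd2 by 2.98 ± 0.18, Acat2 by 2.86 ± 0.27 and Mvd by 2.81 ± 0.24, all with adjusted p of 5.6e-06 or less. Each of these 6 genes had its lowest group mean at 4 h of peptide. Fdps rose by 1.85 ± 0.16 (adjusted p = 7.2e-07), and Fdft1 and Msmo1 had differences of 0.10 and −0.03 that did not pass. Insig1, Insig2, Scap, Hsd17b7, Fasn, Abca1 and Abcg1 fell by 0.55 to 2.21. Of these, Insig2, Scap, Hsd17b7, Fasn and Abcg1 each lost the call without at least 1 library. So did Sqle, Tm7sf2, Sc5d, Stard4 and Acaca among the rises. Without peptide 4 h replicate 2 the changes of Scap, Fasn and Abcg1 were −0.55, −0.47 and −0.90. That of Insig2 was −0.44 without peptide 4 h replicate 1, and that of Hsd17b7 was −0.50 without peptide 24 h replicate 2. With T cell identity genes held level, 29 rose beside 73.3% of all genes and none fell beside 2.69%, and the falls of Insig2, Scap, Hsd17b7, Fasn, Abca1 and Abcg1 turned to rises of 0.06 to 1.20, those of Abca1 and Abcg1 not past the test. The direction of these 6 genes from 4 h to 24 h therefore rests on the scaling, whereas Insig1 stayed negative at −0.45 (adjusted p = 0.0616).

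**Figure D5:**
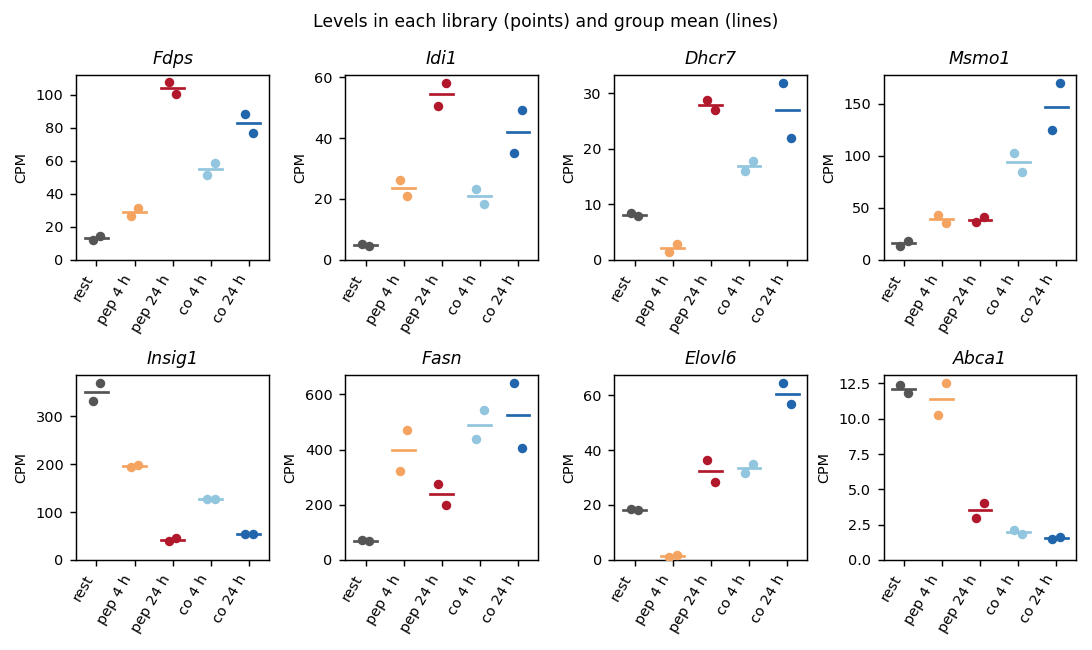
CPM of 8 of the genes in each library (points) with the group mean (lines), each panel with its own axis from 0, where pep is AH1 peptide and co is co-culture with 4T1 cells. Fdps and Idi1 are highest at 24 h of peptide, Msmo1 and Fasn in co-culture at 24 h, Insig1 at rest, and Elovl6 and Dhcr7 are lowest at 4 h of peptide.

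The second pair of comparisons set co-culture with 4T1 cells against rest. All 7 mevalonate and all 6 fatty acid genes and 8 of 11 genes from squalene to cholesterol stood higher in co-culture at either time. Of the rises, those of Scd1, Scd2, Fasn, Msmo1, Idi1 and Fdps were largest on the log2 scale at 4 h and at 24 h. At 4 h 22 genes rose and 5 fell, which is 68.8% beside 34.2% of all genes and 15.6% beside 26.7%, with medians of 0.82 and 0.05. At 24 h 21 rose and 5 fell, which is 65.6% beside 36.0% and 15.6% beside 29.3%, with medians of 1.31 and 0.05. All 15 epithelial genes rose in both comparisons while the T cell identity sum fell to 3121 to 3263 and to 1304 to 1375 CPM, so RNA of 4T1 cells and of CTLs cannot be told apart for any gene here. With T cell identity genes held level, 29 rose at 4 h beside 67.4% of all genes and 1 fell beside 5.51%, and at 24 h 29 rose beside 81.7% and none fell beside 1.37%. The medians were then 2.22 beside 1.45 and 3.98 beside 2.71. Wherever this scaling gave no gene in a direction by edgeR, no gene passed at an unadjusted p under 0.05 either, except Insig1 from 4 h to 24 h of peptide.

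All 7 mevalonate genes rose in co-culture at both times. Fdps stood at 51.5 and 58.5 CPM at 4 h and at 88.4 and 76.8 CPM at 24 h, which is 4.25 and 6.38 times rest (adjusted p = 1.9e-07 and 1.8e-08). Idi1 was 4.26 and 8.65 times rest at the same times. The 4 h rises of Acat2, Mvk, Pmvk and Mvd were between 0.66 and 1.29 on the log2 scale, and each was lost without at least 1 library: without resting replicate 1 the adjusted p was 0.0502 for Mvk, 0.227 for Pmvk and 0.107 for Mvd, and without resting replicate 2 it was 0.179 for Acat2. Without co-culture 4 h replicate 1 it was 0.0547 for Acat2, 0.113 for Pmvk and 0.0956 for Mvd, and without co-culture 4 h replicate 2 it was 0.138, 0.0763 and 0.071. Their rises at 24 h, from 1.26 to 2.12, passed without any single library.

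From squalene to cholesterol 8 genes rose at 4 h and 8 at 24 h, and none fell by edgeR, also at an unadjusted p under 0.05. Msmo1 stood at 103 and 84.5 CPM at 4 h and at 124 and 170.3 CPM at 24 h against 13.4 and 17.6 CPM at rest, 6.05 and 9.52 times higher (adjusted p = 2e-07 and 2.4e-08). Cyp51 was 3.71 and 4.10 times rest, Fdft1 3.16 and 3.94, and Sqle 2.76 and 3.04. Fdft1 shares positions with Ctsb on the opposite strand, a gene with 1120% of its counts, so its values are uncertain. Dhcr7 was 2.10 and 3.34 times rest. Lss, Tm7sf2 and Ebp did not pass at either time, with log2 fold changes from −0.35 to 0.42, though Ebp and, at 4 h, Tm7sf2 turned from negative to 1.05 to 2.64 with T cell identity genes held level. The 24 h rise of Hsd17b7 was marginal at 0.40 ± 0.17 (adjusted p = 0.0479) and was lost in 9 of the 10 fits that leave out a library, among them without resting replicate 2 (0.261) and co-culture 24 h replicate 1 (0.103). The 4 h rise of Nsdhl, the sterol dehydrogenase, was lost without resting replicate 1 (0.166) or co-culture 4 h replicate 2 (0.11).

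Insig1 was lower in co-culture as well, at 127 and 128 CPM at 4 h and at 54.2 and 54.1 CPM at 24 h, 2.76 and 6.50 times below rest (adjusted p = 5.8e-07 and 3.2e-09), but with T cell identity genes held level its changes were −0.07 and −0.03. Srebf2 fell by 0.73 and 0.67 on the log2 scale and Stard4 by 0.94 and 0.50, and with T cell identity genes held level the falls of Srebf2 and Stard4 turned to rises of 0.67, 1.98, 0.45 and 2.16. Srebf1 and Insig2 did not pass. Scap rose at 4 h by 0.61 ± 0.23 (adjusted p = 0.0355), a call lost without either resting library (0.0861 and 0.18) or either co-culture 4 h library (0.0823 and 0.143), and at 24 h had a log2 fold change of 0.08.

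All 6 fatty acid genes rose in co-culture at both times. They also rose with T cell identity genes held level, but that scaling raised the medians of all genes to 1.45 and 2.71, so a rise could only grow. Scd2 (mm10, chr19:44293676-44306864, plus strand) stood at 335 and 399 CPM at 4 h and at 356 and 274 CPM at 24 h against 26.9 and 32.4 CPM at rest, 12.4 and 10.6 times higher (adjusted p = 2.9e-09 and 3.5e-09). Fasn stood at 438 and 543 CPM and at 642 and 407 CPM, 7.06 and 7.56 times rest. Acaca rose 3.26 and 3.35 times, and Acly 1.71 and 1.79 times. Elovl6 was at 31.8 and 34.8 CPM at 4 h and at 64.3 and 56.8 CPM at 24 h, and so was not low at 4 h as it was with peptide. Abca1 fell to 2.12 and 1.86 CPM at 4 h and to 1.48 and 1.65 CPM at 24 h, 6.09 and 7.71 times below rest, and Abcg1 was 3.51 and 4.32 times below, but with T cell identity genes held level only Abca1 at 4 h still passed (−1.21, adjusted p = 0.016) and Abcg1 at 24 h turned to 0.53.

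Co-culture was then set against peptide at the same time. At 4 h 16 genes were higher in co-culture beside 35.1% of all genes and 7 were lower beside 26.3%, with medians of 0.37 and 0.16. Elovl6 and Scd2 differed most, being 24.5 and 32.7 times higher in co-culture (adjusted p = 6e-09 and 5.3e-10), followed by Dhcr7 at 8.07 times (adjusted p = 2e-06). Acat2, Mvk, Tm7sf2, Acaca, Msmo1, Lss, Sc5d, Acly and Nsdhl were 2.00 to 3.66 times higher. Abca1 was 5.74 times lower (adjusted p = 1.5e-05), and Insig1, Insig2, Srebf2, Stard4, Hsd17b7 and Scd1 were 1.46 to 2.13 times lower. With T cell identity genes held level the last 6 turned to 1.17 to 1.71 higher on the log2 scale. Abca1 was then at −0.26 and did not pass (adjusted p = 0.542). In that scaling 31 genes were higher beside 84.9% of all genes and none lower beside 2.60%. The calls of Mvd, Cyp51, Srebf2 and Scd1 were each lost without 1 or more of the 4 libraries at 4 h, the adjusted p without peptide 4 h replicate 2 being 0.056, 0.131, 0.0861 and 0.0797.

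At 24 h the balance was even, with 8 genes higher in co-culture beside 28.6% of all genes and 7 lower beside 24.0%, and medians of −0.09 and 0.02. Of the fatty acid genes 5 were higher, with Scd2 at 3.55 times, Fasn at 2.21 times and Elovl6 at 1.87 times. Msmo1 was 3.85 times higher (adjusted p = 2.4e-06) and Sc5d 1.85 times. The 7 lower genes were Mvk, Mvd, Lss, Hsd17b7, Ebp, Stard4 and Abca1, of which Mvd was 2.75 times lower (adjusted p = 9e-05) and Hsd17b7 2.54 times lower (adjusted p = 1.1e-05), but with T cell identity genes held level all 7 turned to higher values, of 0.34 to 0.97 on the log2 scale. In that scaling 29 genes were higher beside 79.3% of all genes and none lower beside 4.21%. The call of Insig1 was lost on leaving out any 1 library other than peptide 24 h replicate 2. It was also lost with no filter on low counts (edgeR, adjusted p = 0.0735) and the replicate block (0.0533). Mvk kept its call only without a peptide 4 h library or peptide 24 h replicate 2, and lost it with the replicate block (0.0576). Acly, Acaca and Abca1 lost theirs without co-culture 24 h replicate 1 (log2 differences 0.29, 0.44 and −1.08). Acly and Abca1 also lost theirs without peptide 24 h replicate 2, and Lss without peptide 24 h replicate 1 or co-culture 24 h replicate 2.

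From 4 h to 24 h of co-culture 7 genes rose beside 8.50% of all genes and 2 fell beside 8.02%, with medians of 0.23 and 0.01. The risen genes were Acat2, Pmvk, Idi1, Fdps, Msmo1, Stard4 and Elovl6, at 0.44 to 1.11 on the log2 scale. Insig1 fell by 1.23 ± 0.13 (adjusted p = 3.5e-05) and Hsd17b7 by 0.94 ± 0.16 (adjusted p = 0.00137), but with T cell identity genes held level these were 0.03 and 0.33. In that scaling 28 genes rose beside 72.9% of all genes and none fell beside 1.16%. Without co-culture 4 h replicate 1 only 2 genes rose and without co-culture 4 h replicate 2 none did by edgeR, where 7 had an unadjusted p under 0.05, so none of the 7 rises stood in every fit.

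The last comparison asked whether the change from 4 h to 24 h differed between co-culture and peptide. The signed log2 difference, co-culture minus peptide, was negative for 11 genes beside 20.2% of all genes and positive for 3 beside 15.8%, with medians of −0.39 and −0.10. Elovl6 had a log2 difference from 4 h to 24 h of 4.57 with peptide and of 0.86 in co-culture, and the gap of −3.71 ± 0.31 passed the test (adjusted p = 1.8e-06). For Scd2 these values were 2.98 and −0.22, and for Dhcr7 3.73 and 0.67. These 3 genes were low at 4 h of peptide and not at 4 h of co-culture. Mvk, Mvd, Lss, Acat2, Nsdhl, Fdps, Ebp and Cyp51 had differences of −2.55 to −0.58 in the same direction. Insig1 and Abca1 fell with peptide, by 2.21 and 1.70, and had log2 differences of −1.23 and −0.34 in co-culture, while Insig2 had −0.57 and 0.32. The gaps of Insig1, Insig2 and Abca1 were thus positive, at 0.98, 0.89 and 1.36, and did not pass with T cell identity genes held level (0.48, 0.40 and 0.86). In that scaling the gap was negative for 16 genes beside 28.7% of all genes and positive for none beside 5.96%. It took the median of all genes from −0.10 to −0.56, so negative gaps grew and positive ones shrank by the shift itself. The call of Cyp51 was lost on leaving out any 1 library other than co-culture 24 h replicate 2, with gaps of −0.66 to −0.45. It was also lost with DESeq2 (adjusted p = 0.059), its size factors in edgeR (0.0703), no filter on low counts (0.0634) and the replicate block (0.0681). The call of Abca1 was lost without peptide 4 h replicate 2, peptide 24 h replicate 1 or any 1 co-culture library, with gaps of 1.16 to 1.44. With no filter on low counts it was lost too (edgeR, adjusted p = 0.0553).

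Other genes of the same routes were taken from a list of 35, of which 33 were in the table and 32 were tested. Against rest, 14 rose and 8 fell at 4 h of peptide, where 28.8% and 30.7% of all genes did so. At 24 h of peptide 15 rose and 3 fell beside 29.2% and 26.1%. At 4 h of co-culture 20 rose and 3 fell beside 34.2% and 26.7%, and at 24 h of co-culture 19 rose and 1 fell beside 36.0% and 29.3%. Of the 6 oxysterol response genes among them, 4 rose and 0 fell at 4 h of peptide, 3 and 1 at 24 h of peptide, and 2 and 1 at either time of co-culture. Ch25h and Cyp27a1 had no count at rest or in co-culture and at most 0.958 CPM with peptide. Nr1h3 reached at most 2.09 CPM in any library, so calls on these genes rest on few reads. Levels and changes of the genes of this list are under TMM scaling only. In that scaling Lpcat3 and Mylip, unlike the pumps, stood above rest in every group. Lpcat3 went from 13.8 and 13.5 CPM to 20.5 to 34.4 CPM, and Mylip from 0 and 0.0687 CPM to 1.70 to 7.085 CPM. The rise of Lpcat3 after 4 h of peptide was 0.82 ± 0.17 on the log2 scale. T cell identity scaling lowered log2 changes in that comparison, with an all-gene median of −0.91 in place of −0.04. Whether Lpcat3 stayed above rest under it was not tested. Why Lpcat3 and Mylip differ from the pumps was not tested either. Tmem97, a sterol-regulated membrane protein, stood at 6.33 and 7.35 CPM at rest, at 32.1 and 24.5 CPM at 4 h of peptide, at 86.0 and 87.0 CPM at 24 h of peptide, and at 41.3 to 65.7 CPM in co-culture. It rose by 2.05 to 3.66 on the log2 scale, all with adjusted p of 1.1e-06 or less. Me1, the malic enzyme that supplies NADPH, rose most at 24 h of peptide, from 15.9 and 15.5 CPM to 286 and 241 CPM (4.07 ± 0.21, adjusted p = 8.4e-09). Aacs, the acetoacetyl-CoA synthetase, rose in all 4 comparisons by 1.65 to 2.63. Fads2, a fatty acid desaturase, had at most 0.0560 CPM at rest and stood at 7.67 and 7.60 CPM at 24 h of peptide and at 23.8 to 54.7 CPM in co-culture. Npc2, the lysosomal sterol carrier, fell with peptide by 2.30 ± 0.13 at 4 h and 2.06 ± 0.12 at 24 h, and in co-culture by 0.98 ± 0.12 at 4 h, where it stood at 281 and 279 CPM against 525 and 582 CPM at rest, whereas at 24 h of co-culture it did not pass, at 558 and 579 CPM. Acss2, an acetyl-CoA synthetase, fell by 3.58 ± 0.45 at 4 h of peptide and by 1.21 ± 0.36 at 24 h.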

How the data were processed

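The authors deposited raw counts per gene for 10 libraries, 2 in each of 5 groups. The build was mm10 and DESeq2 1.36 was used, per the submitters' processing notes. The labels describe strand-specific libraries of poly(A) RNA, and name neither aligner, counting tool nor strand setting. Columns were matched to samples by the labels, and no column was left without a sample.

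From the counts, genes were kept by filterByExpr (minimum count 10, 14729 genes), scaled by TMM, and fitted with 1 mean per group in edgeR 4.0.16 (R 4.3.3, limma 3.58.1). Contrasts were tested by the quasi-likelihood test, two-sided, with Benjamini-Hochberg adjustment over all genes tested and a threshold of 0.05. The shared spread of replicates, as a biological coefficient of variation, was 0.159 (5 residual, 7.82 prior degrees of freedom). With 2 libraries a group the precision comes from the spread shared over all groups. Replicates differed by more than sampling noise in every group (mean chi-square per gene 6.94 to 47.7). The procedure was tested on simulated counts.

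Alternatives were DESeq2 1.42.0, its size factors in edgeR, library totals, T cell identity scaling, no filter on low counts, a replicate block and leaving out each library. The 32 genes, their roles, the other genes of the pathway (named by at most 4 smallest p-values a direction and comparison), the motifs and the marker lists were chosen with earlier results of these data known. Promoter sequences are from RefSeq, GRCm38.p6. Matching was by gene symbol. Over the 9 comparisons, Spearman correlations of log2 fold change with transcript GC content over the 32 genes were −0.19 to 0.11, and with gene length −0.54 for 24 h against 4 h of co-culture, −0.33 for 24 h against 4 h of peptide and −0.18 to 0.22 for the others, a description over genes that share libraries.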

Additional observations from a re-analysis of the deposited data

Results flagged for a closer look

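For 14 of the 32 genes the change from 4 h to 24 h differed between co-culture and peptide by a test of the difference itself (edgeR quasi-likelihood test, Benjamini-Hochberg adjusted over all genes tested). The difference was negative for 34.4% of the 32 genes beside 20.2% of all genes and positive for 9.38% beside 15.8%. The differences below are co-culture minus peptide on the log2 scale, over 2 libraries in each of 4 groups. In the fatty acid genes they were −3.71 for Elovl6 (adjusted p = 1.8e-06) and −3.20 for Scd2 (adjusted p = 7.8e-07). In the mevalonate genes they were −2.55 for Mvk, −2.23 for Mvd, −1.81 for Acat2 and −1.26 for Fdps, with adjusted p from 0.00016 to 0.0016. From squalene to cholesterol they were −3.06 for Dhcr7, −2.13 for Lss, −1.39 for Nsdhl, −0.91 for Ebp and −0.58 for Cyp51, with adjusted p from 5.8e-05 to 0.0416. With T cell identity genes held level these 11 were at −4.16 for Elovl6 to −1.07 for Cyp51. That scaling took the median of all genes from −0.10 to −0.56. Negative differences thus grew and positive ones shrank by the shift itself, and the calls under it are no separate check. The positive differences were 0.89 for Insig2, 0.98 for Insig1 and 1.36 for Abca1 (adjusted p = 0.00852, 0.00119 and 0.0327), and with T cell identity genes held level they were 0.40, 0.48 and 0.86 and did not pass. The calls of Cyp51 and Abca1 were lost in most fits that leave out 1 library, and with no filter on low counts. Epithelial genes summed to 4629 to 4733 CPM at 4 h and 4195 to 4214 CPM at 24 h of co-culture, B cell genes to 461 to 541 and 204 to 433 CPM with peptide, and their part in these differences was not tested.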

How the results depend on the processing

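DESeq2, its size factors in edgeR, no filter on low counts and the replicate block kept 280, 282, 271 and 281 of the 288 member results on the same side of the threshold. No result that passed in either fit turned its direction. A sign that turned with neither fit past the threshold was counted as kept. DESeq2 gave 5 genes with a positive difference of changes (co-culture minus peptide) in place of 3. Deviations of same-numbered libraries from their group means correlated between −0.37 and 0.20, so no strong shared shift was seen. With 2 libraries a group this cannot show whether same-numbered libraries shared a culture or batch. With the replicate block 7 of 288 member results were weaker. Against rest it gave 12 risen and 8 fallen at 4 h of peptide and 23 and 3 at 24 h of peptide. In co-culture it gave 22 and 5 at 4 h and 20 and 5 at 24 h.

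T cell identity scaling took the median of all genes against rest from −0.04 to −0.91 at 4 h of peptide, from 0.02 to 0.90 at 24 h of peptide, from 0.05 to 1.45 at 4 h of co-culture and from 0.05 to 2.71 at 24 h of co-culture, and the share of calls that were higher from 48.4%, 52.8%, 56.1% and 55.2% to 20.5%, 84.1%, 92.5% and 98.4%. Risen and fallen members were then 6 and 19 at 4 h of peptide, and 1 and 0 fell at 4 h and 24 h of co-culture. In co-culture against peptide 31 rose and 0 fell at 4 h and 29 rose and 0 fell at 24 h. From 4 h to 24 h 29 rose and 0 fell with peptide, and 28 rose and 0 fell in co-culture, and 0 had a positive difference of changes. The following changed sign, and since this scaling adds 1 value to every gene of a library, the shift itself accounts for the turn. At 4 h of peptide they were the median of the 32 genes (−0.83), Srebf1 (−0.69), Stard4 (−0.72) and Acaca (−0.56), and at 24 h Srebf1 (0.68) and Srebf2 (0.63). At 4 h of co-culture they were Tm7sf2 (1.22), Ebp (1.05), Insig2 (1.28), Srebf2 (0.67) and Stard4 (0.45), and at 24 h Ebp (2.64), Srebf1 (2.40), Srebf2 (1.98), Stard4 (2.16) and Abcg1 (0.53). In co-culture against peptide at 4 h they were Idi1 (2.10), Hsd17b7 (1.31), Ebp (2.19), Insig1 (1.65), Insig2 (1.25), Srebf1 (2.14), Srebf2 (1.71), Scap (1.80), Stard4 (1.17), Scd1 (1.30) and Abcg1 (1.78). In co-culture against peptide at 24 h they were the median (1.68), Mvk (0.97), Pmvk (1.46), Mvd (0.34), Idi1 (1.42), Fdps (1.45), Lss (0.88), Cyp51 (1.64), Nsdhl (1.38), Hsd17b7 (0.44), Ebp (0.81), Dhcr7 (1.71), Insig2 (1.65), Srebf1 (1.72), Srebf2 (1.35), Scap (1.56), Stard4 (0.77), Scd1 (1.60) and Abca1 (0.60). From 4 h to 24 h of peptide they were Hmgcs1 (1.41), Msmo1 (1.74), Hsd17b7 (1.20), Insig2 (1.20), Srebf1 (1.37), Srebf2 (1.67), Scap (0.93), Fasn (0.97), Scd1 (1.09), Abca1 (0.06) and Abcg1 (0.65). From 4 h to 24 h of co-culture they were Hmgcs1 (1.10), Lss (1.23), Hsd17b7 (0.33), Insig1 (0.03), Srebf1 (0.95), Scap (0.70) and Scd2 (1.04).

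Library totals in place of TMM, which leave the share of Ifng in place at 4 h of peptide, moved the median of all genes there to −0.54 and the share of calls that were higher to 31.0%. With library totals 15 of the 32 members (46.9%) fell at 4 h of peptide, beside 6259 of all 14729 genes. In co-culture against peptide at 4 h 3 members were lower beside 1919 of all genes. From 4 h to 24 h of peptide 2 members fell beside 1861 of all genes. The difference of changes was positive for 0 members beside 1000 of all genes and negative for 20 beside 5238. The higher share of calls was 79.6% for co-culture against peptide at 4 h and 77.5% for 24 h against 4 h of peptide. Signs turned for the median (−0.47) and Stard4 (−0.35) at 4 h of peptide, for Ebp (0.53), Srebf1 (0.48) and Srebf2 (0.04) in co-culture against peptide at 4 h, for Msmo1 (0.54), Hsd17b7 (0.02), Insig2 (0.00) and Srebf2 (0.50) from 4 h to 24 h of peptide, and for Stard4 (−0.52) in the difference of changes.

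Leaving out 1 library kept 2723 member results, while 129 were weaker and 28 stronger. The number of genes that fell from 4 h to 24 h of peptide ranged from 4 to 7, those that rose from 4 h to 24 h of co-culture from 0 to 9, and those higher in co-culture than with peptide at 24 h from 5 to 7. The median of the 32 genes ranged from −0.10 to 0.15 in co-culture against peptide at 24 h and from −0.022 to 0.14 at 4 h of peptide. With 2 libraries a group, small changes could not be told from the spread.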
